A study of Mus musculus with 32 samples.

Results

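Sarcolipin (Sln) and 8 other genes of calcium handling in muscle fibres were followed across 8 groups of mouse muscle. The 9 genes were chosen by symbol, for calcium pumps, their inhibitors, calcium release and calcium buffering, and all 9 were found among the 55487 genes of the deposited table. They are Sln and phospholamban (Pln), the pumps Atp2a1 and Atp2a2, the calsequestrins Casq1 and Casq2, the release channel Ryr1, its voltage sensor Cacna1s, and parvalbumin (Pvalb). All 9 passed the filter on low counts in both muscles.

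The study deleted 2 type I receptors of the TGF-β family, Acvr1b and Tgfbr1, in myofibres only, with tamoxifen given to mice aged 6 weeks, and took muscles 3 months later. The 4 genotypes were Acvr1b and Tgfbr1 KO (called double KO below), Acvr1b KO, Tgfbr1 KO and control, with 4 mice each. Soleus, a slow muscle, and gastrocnemius medialis, a fast muscle, were both taken from the left leg of each of the 16 mice, so each of the 8 groups held 4 libraries of polyA RNA from whole muscle. The Cre driver, the floxed alleles and the treatment of the control mice are not given in the sources used here, and the 4 double KO mice carry animal numbers far from the numbers of the rest, so that genotype and cohort cannot be told apart for that group.

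In a muscle fibre, calcium is released from the sarcoplasmic reticulum when the voltage sensor in the surface membrane opens the ryanodine receptor, and contraction ends when calcium pumps return it. Atp2a1 encodes SERCA1, the pump of fast fibres, and Atp2a2 encodes SERCA2, the pump of slow fibres and heart. Sarcolipin, phospholamban and myoregulin (Mrln) are very small membrane proteins that bind these pumps and inhibit them, and sarcolipin binding also lets the pump spend ATP without moving calcium, which makes heat. Calsequestrin stores calcium inside the reticulum, with Casq1 as the fast and Casq2 as the slow and cardiac form, and parvalbumin soaks up calcium in the cytosol of fast fibres.

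The coding sequences of the 3 small pump inhibitors are shown because each is one short open reading frame inside a single exon, which is unlike the other genes described. They were read from GRCm38 with GENCODE M21 gene models, run 5′ to 3′ on the plus strand, and have the start and stop codons in capitals. The Sln frame lies at chr9:53853473-53853568, the Pln frame at chr10:53343864-53344022 and the Mrln frame at chr10:70219496-70219636.
Sln: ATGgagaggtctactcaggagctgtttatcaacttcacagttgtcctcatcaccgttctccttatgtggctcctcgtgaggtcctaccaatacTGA
Pln: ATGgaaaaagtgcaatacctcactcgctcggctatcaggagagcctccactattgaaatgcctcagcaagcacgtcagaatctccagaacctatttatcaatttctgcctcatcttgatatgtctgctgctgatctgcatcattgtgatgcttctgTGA
Mrln: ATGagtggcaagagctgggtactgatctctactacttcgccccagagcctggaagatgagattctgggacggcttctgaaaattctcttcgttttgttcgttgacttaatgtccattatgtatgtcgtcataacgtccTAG
Without the stop codon these frames hold 31 codons in Sln, 52 in Pln and 46 in Mrln. The counts used below cover all exons of a gene, which come to 1318 bases in Sln and 2759 in Pln, so most of each transcript lies outside the frame shown.

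Libraries held 16535498 to 54456977 counts. Levels are CPM, counts relative to the TMM-scaled size of the library, on 1 scale for all 32 libraries, and differences are log2 fold changes with their standard errors (SE) from edgeR's quasi-likelihood test, called at a Benjamini-Hochberg adjusted p under 0.05 over all genes tested. Acvr1b, counted over the whole gene, was lower in both groups that delete it: in gastrocnemius it averaged 17.5 ± 4.10 CPM in double KO and 25.6 ± 1.60 CPM in Acvr1b KO, against 107 ± 10.03 CPM in control (SD, n = 4 each). Tgfbr1 was not lower in the groups that delete it, at 47.8 ± 7.38 CPM in double KO and 29.5 ± 3.33 CPM in Tgfbr1 KO gastrocnemius against 28.5 ± 6.75 CPM in control, and a count over the whole gene cannot check the loss of part of it. Double KO mouse 1 stood apart from the other 3 double KO mice in both muscles, mitochondrial genes took 25.99% of gastrocnemius control 1, where the other 3 controls had 10.35 to 13.88%, and gastrocnemius Tgfbr1 KO 1 was the shallowest library. Sln and the other genes of calcium handling listed at the start were tested without these libraries as well. Values for genes of other lists, for fibre and cell-type markers and for RNA ratios were not recomputed without them. In whole muscle, fewer fibres of a type and less RNA per fibre cannot be told apart.

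In control mice the 9 genes split the muscles along the fast and slow forms. Sln, Pln, Atp2a2 and Casq2 were higher in soleus, and Atp2a1, Casq1, Ryr1, Cacna1s and Pvalb were lower in soleus than in gastrocnemius, so that 9 of 9 were called; 40.4% of all 18726 genes tested were called in that comparison. No member's 4 soleus libraries overlapped its 4 gastrocnemius libraries, which held for 38.4% of all genes.

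Among the pump inhibitors, Sln was 22.8, 20.2, 29.7 and 18.5 CPM in control soleus, against 0.985, 0.553, 0.915 and 1.70 CPM in control gastrocnemius. This 21.7-fold difference (log2 4.44, SE 0.330, adjusted p = 1.04e-11) was the second in size among the members after Pvalb. Pln, the main pump inhibitor of heart, was 9.63, 9.79, 7.45 and 4.27 CPM in control soleus, against 1.25, 0.968, 0.402 and 0.955 CPM in control gastrocnemius (log2 3.09, SE 0.478, adjusted p = 6.12e-06). Both inhibitors thus had their higher level in the slow muscle, and both were scarce beside the pumps. Per kilobase of exon, Sln averaged 17.3 ± 3.74 and Pln 2.82 ± 0.933 CPM per kb in control soleus, against 963 ± 162 CPM per kb for Atp2a2 and 3384 ± 483 CPM per kb for Atp2a1 (SD, n = 4).

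The pumps moved in opposite directions between the muscles. Atp2a2 was 6570, 6610, 4502 and 5740 CPM in control soleus, against 418, 467, 457 and 641 CPM in control gastrocnemius (log2 3.56, SE 0.163, adjusted p = 6.97e-16). Atp2a1 was 11051, 13107, 9730 and 13181 CPM in control soleus, against 28454, 33890, 31422 and 34908 CPM in control gastrocnemius (log2 -1.45, SE 0.122, adjusted p = 1.30e-10). Atp2a1 nevertheless made up most of the pump RNA in both: per kilobase, it was 77.8 ± 2.37% of Atp2a1 plus Atp2a2 in control soleus and 99.1 ± 0.115% in control gastrocnemius (SD, n = 4).

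The calsequestrins paralleled the pumps. Casq2 averaged 199 ± 19.5 CPM in control soleus and 21.5 ± 2.06 CPM in control gastrocnemius (log2 3.21, SE 0.414, adjusted p = 3.30e-07). Casq1 averaged 662 ± 48.2 CPM in control soleus and 2254 ± 205 CPM in control gastrocnemius (log2 -1.77, SE 0.252, adjusted p = 1.69e-06; SD, n = 4 each). Per kilobase Casq1 was 82.3 ± 1.91% of the calsequestrin RNA in control soleus and 99.3 ± 0.0568% in control gastrocnemius.

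Among the remaining members, the release channel Ryr1 (log2 -0.93, SE 0.114) and the voltage sensor Cacna1s (log2 -0.49, SE 0.102, adjusted p = 0.000340) showed the smallest differences between the muscles. Pvalb showed the largest: it was 203, 313, 283 and 105 CPM in control soleus, against 4857, 5670, 5210 and 5381 CPM in control gastrocnemius (log2 -4.55, SE 0.399, adjusted p = 2.88e-10). Relative to its mean, Pvalb spread more widely between control mice in soleus (226 ± 93.3 CPM) than in gastrocnemius (5280 ± 339 CPM; SD, n = 4 each). Slow-fibre markers ran the same way as the slow members, with 8 of 8 higher in soleus, where 40.4% of all genes were called. Their sum was 20786 to 23413 CPM in control soleus against 1521 to 2361 CPM in control gastrocnemius.

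**Figure D1:**
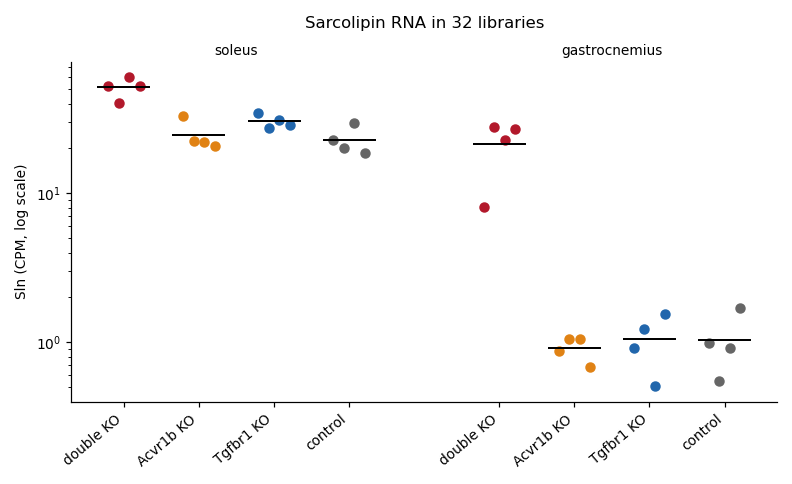
Sln in each library, in CPM on a log axis, with 1 point per mouse and a bar at the mean of each group of 4. The double KO points lie above every other point of the same muscle, and the gap is far wider in gastrocnemius, where 12 libraries of the other genotypes sit between 0.508 and 1.70 CPM.

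The largest genotype difference among the 9 genes was in Sln. Its levels in gastrocnemius were 8.11, 28, 22.8 and 26.9 CPM in double KO, 0.878, 1.05, 1.05 and 0.679 CPM in Acvr1b KO, 0.915, 1.22, 0.508 and 1.56 CPM in Tgfbr1 KO, and 0.985, 0.553, 0.915 and 1.70 CPM in control. Every double KO library, mouse 1 included, was above all 12 others, which overlapped among themselves. Sln was 20.5-fold higher in double KO than in control (log2 4.36, SE 0.379, edgeR adjusted p = 9.32e-07), 43rd of 17536 genes by p. The difference was 4.59 without the libraries that stand apart, a setting chosen after seeing the data. The low levels of the other genotypes rested on few reads, 13 to 66 counts a library, against 248 to 1057 counts in double KO.

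In gastrocnemius of double KO against control, 3 of the 9 genes were called: Sln rose, and Atp2a2 and Ryr1 fell. These 3 were also the members whose libraries did not overlap between the groups. In this comparison 20.9% of all genes were called and 21.3% did not overlap, so the share of members is close to that of genes at large. The median log2 difference was -0.13 over the 9 genes and 0.00041 over all genes tested.

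Atp2a2, the slow pump, was 223, 287, 271 and 280 CPM in double KO gastrocnemius, against 418, 467, 457 and 641 CPM in control. All 4 double KO values lay below all 4 control values (log2 -0.89, SE 0.112, adjusted p = 3.42e-05). Atp2a1, the fast pump, was 25335, 28461, 27955 and 28129 CPM in double KO gastrocnemius, against 28454, 33890, 31422 and 34908 CPM in control; the 2 groups overlapped by 1 library on each side (log2 -0.21, SE 0.0760). Its adjusted p was 0.0547, and it passed the threshold with DESeq2 (0.0139), without the libraries that stand apart (0.0135) and without control 1 (0.0139). Per kilobase, Atp2a1 made up 99.5 ± 0.0334% of pump RNA in double KO gastrocnemius and 99.1 ± 0.115% in control.

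Ryr1, the release channel, was 4545, 4975, 4990 and 4985 CPM in double KO gastrocnemius, against 5922, 6782, 6715 and 6826 CPM in control (log2 -0.42, SE 0.0840, adjusted p = 0.00207). All 4 double KO values were the lower ones. Its partner Cacna1s was 1067, 1175, 1236 and 1262 CPM in double KO and 1168, 1326, 1359 and 1384 CPM in control, which overlapped (log2 -0.13, SE 0.0749, adjusted p = 0.232). Reads of Ryr1, Atp2a1 and Atp2a2 were shared as fractions with other places in the genome in 28 of the 32 libraries, so that a part of each count, whose size was not measured here, depends on how such reads were divided; Sln, Pln and Casq2 had whole counts in every library.

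The other 4 members did not pass the test in double KO gastrocnemius. Pln was 0.589, 1.70, 1.49 and 0.864 CPM in double KO and 1.25, 0.968, 0.402 and 0.955 CPM in control (log2 0.37, SE 0.341, adjusted p = 0.482). Casq1 was 1448, 2288, 2107 and 2104 CPM in double KO, against 2457, 2289, 1969 and 2301 CPM in control (log2 -0.17, SE 0.112, adjusted p = 0.295). Casq2 was 8.11, 33.7, 23.2 and 26.9 CPM in double KO and 23.2, 19.4, 20.05 and 23.3 CPM in control (log2 0.10, SE 0.273, adjusted p = 0.820), and 3 of the 4 double KO mice were at about or above the top of the control range while mouse 1 was far below it. Without the libraries that stand apart the Casq2 difference was 0.42 (adjusted p = 0.0532). Pvalb averaged 5323 ± 797 CPM in double KO gastrocnemius and 5280 ± 339 CPM in control (SD, n = 4; log2 0.02, SE 0.0910, adjusted p = 0.884).

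Fibre-type markers moved beside these genes. In double KO gastrocnemius 7 of 8 slow-fibre markers were lower than in control and none was higher, where 20.9% of all genes were called, and their sum was 708 to 1219 CPM in double KO against 1521 to 2361 CPM in control. The slow myosin gene Myh7 averaged 423 ± 74.9 CPM in double KO and 817 ± 186 CPM in control (SD, n = 4; log2 -0.94, SE 0.149, adjusted p = 0.000310), a difference like that of Atp2a2. The IIa myosin gene Myh2 (log2 -0.58, adjusted p = 0.00115) and the IIb myosin gene Myh4 (log2 -0.47, adjusted p = 0.00339) fell too, and the IIx myosin gene Myh1 missed the threshold (log2 -0.39, adjusted p = 0.0748). Of 8 fast-fibre markers, 1 was higher and 3 were lower. Their sum was lower as well, at 102856 to 122674 CPM in double KO against 127590 to 167511 CPM in control. Much of that fall lay in Myh4, which averaged 56146 ± 3853 CPM in double KO and 78107 ± 11580 CPM in control (SD, n = 4). Sln rose in muscles in which the slow-fibre and the fast-fibre sums were both lower. In control mice Sln was higher in the slow muscle, and the part of fibre types in its rise was not tested.

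Markers of other cells were read in the same comparison of double KO with control gastrocnemius, where 20.9% of all genes were called. Of 6 macrophage markers 5 were higher in double KO, with a sum of 67.2 to 128 CPM against 45.5 to 51.9 CPM in control. Of 7 smooth-muscle markers, a list that holds Des and so is not limited to other cells, 1 was higher and 4 lower. Of 6 endothelial markers 2 were lower, and of 5 adipocyte markers tested 2 were lower. Of 7 fibroblast and tendon markers 1 was higher, and of 5 satellite-cell markers 1 was higher and 1 lower. None of the neutrophil or the Schwann-cell markers was called. Ucp1, an adipocyte marker, was the only marker at 0 in all 4 libraries of both groups. The part of these cells in the values of Sln, Atp2a2 and Ryr1 was not tested.

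**Figure D2:**
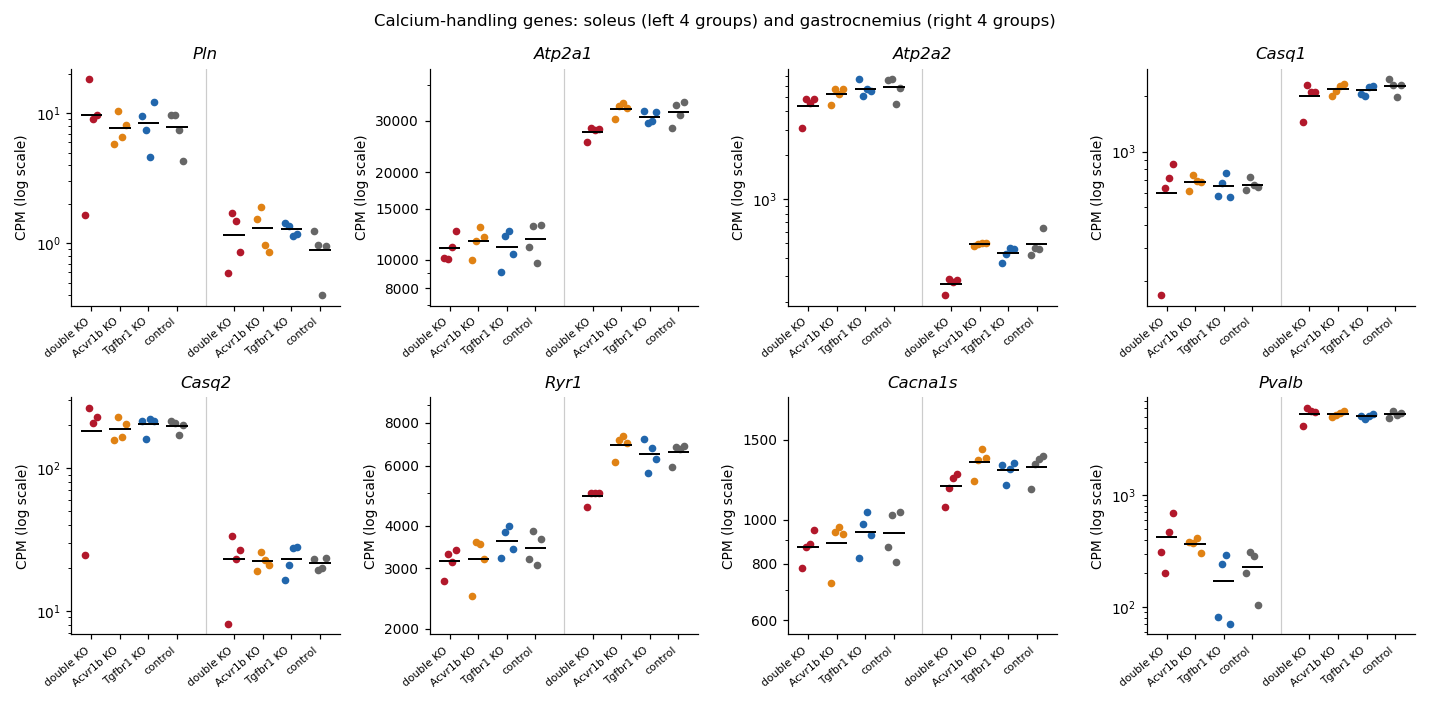
The other 8 genes in each library, in CPM on log axes that differ between panels, with 1 point per mouse, a bar at the mean of each group of 4, soleus groups to the left of the grey line and gastrocnemius groups to the right. Atp2a2 and Ryr1 are the panels in which the 4 double KO gastrocnemius points lie below those of the other 3 genotypes without overlap, as do those of Atp2a1 except for control mouse 1.

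In soleus of double KO against control, Sln alone of the 9 genes was called, and it alone did not overlap; 0.722% of all 18143 genes tested were called and 7.82% did not overlap. Sln was 52.6, 40.7, 60.3 and 52.4 CPM in double KO soleus, against 22.8, 20.2, 29.7 and 18.5 CPM in control. The double KO values were all above the control values, 2.27-fold on average (log2 1.18, SE 0.178, edgeR adjusted p = 0.00535), 19th of 18143 genes by p. Leaving out any 1 library kept the difference between 1.10 and 1.34 and its adjusted p under the threshold. Over the settings other than leaving out a library, the call held, but narrowly in 1 of them. The highest adjusted p there, by edgeR or DESeq2, was 0.04998.

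The pumps in soleus gave smaller values that missed the threshold. Atp2a2 was 3077, 4881, 4586 and 4873 CPM in double KO soleus, against 6570, 6610, 4502 and 5740 CPM in control (log2 -0.42, SE 0.158, adjusted p = 0.287). Mouse 1 gave the lowest double KO value and control 3 lay among the double KO values. Atp2a1 averaged 10978 ± 1156 CPM in double KO soleus and 11767 ± 1679 CPM in control (SD, n = 4; log2 -0.09, SE 0.139, adjusted p = 0.850). Ryr1 (log2 -0.12, SE 0.126) and Cacna1s (log2 -0.09, SE 0.117) in soleus had adjusted p-values of 0.756 and 0.817.

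Pvalb, the fast-fibre buffer, was 311, 200, 466 and 697 CPM in double KO soleus, against 203, 313, 283 and 105 CPM in control. The groups overlapped, and the 1.86-fold difference missed the threshold (log2 0.90, SE 0.459, adjusted p = 0.459). Pvalb in soleus varied from mouse to mouse in all genotypes, 70.8 to 293 CPM in Tgfbr1 KO and 301 to 411 CPM in Acvr1b KO. The IIb myosin gene Myh4 varied likewise in soleus, at 4385 ± 3133 CPM in double KO and 1832 ± 1287 CPM in control (SD, n = 4). No marker of the 10 fibre and cell-type lists was called in double KO against control soleus; the macrophage markers summed to 55.0 to 135 CPM in double KO and 33.6 to 80.4 CPM in control, and their part in the Sln value was not tested.

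Double KO mouse 1 set the spread of 3 soleus members. Its Pln was 1.65 CPM against 9.08 to 18.3 CPM in the other 3 double KO mice, its Casq2 24.5 CPM against 209 to 264 CPM, and its Casq1 168 CPM against 636 to 857 CPM. Those levels were 13.3%, 10.4% and 22.7% of the mean of the other 3. In that soleus the slow-fibre markers summed to 9612 CPM against 18933 to 20861 CPM in the other 3, while its Sln, at 52.6 CPM, lay inside their range. In gastrocnemius all 9 members were lower in mouse 1 than in the other 3 double KO mice, from 29.1% (Casq2) to 91.2% (Ryr1) of their mean. Without this mouse the soleus differences between double KO and control were 0.66 for Pln, 0.15 for Casq1 and 0.23 for Casq2, against 0.31, -0.15 and -0.13 with it, and none passed the threshold either way.

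**Figure D3:**
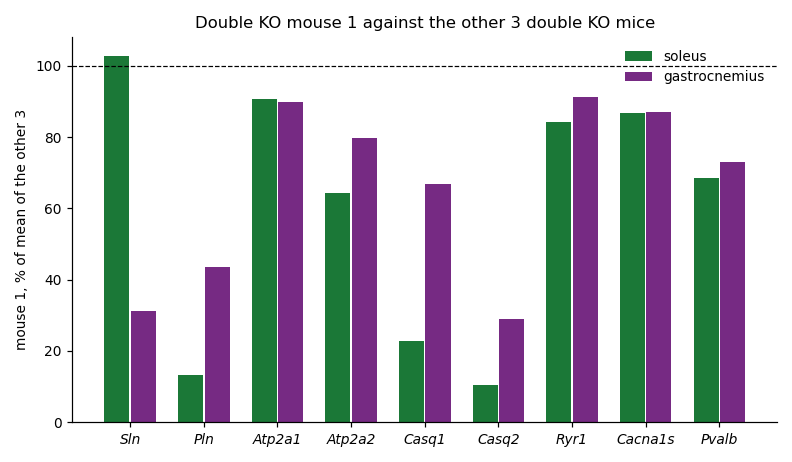
The level of each gene in double KO mouse 1 as a percentage of the mean of the other 3 double KO mice, with soleus and gastrocnemius bars side by side and a dashed line at 100%. In soleus Pln, Casq1 and Casq2 fall to 10.4 to 22.7% while Sln stays at 103%, and in gastrocnemius every bar is below the line.

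The genotype effect on Sln differed between the muscles. The double KO difference from control was 1.18 in soleus and 4.36 in gastrocnemius, and the test of soleus minus gastrocnemius in the fit of both muscles gave log2 -3.18 (SE 0.414, edgeR adjusted p = 5.40e-05), 7th of 18726 genes by p. Sln was the 1 member of 9 called in this test; 0.732% of all genes were called, 137 genes, or 258 with the animal as a block. With the animal as block the Sln value was -3.07 (adjusted p = 0.00211), and leaving out any 1 library kept it between -3.54 and -2.96. Sln was 21.7-fold higher in soleus than in gastrocnemius in control mice but 2.40-fold higher in double KO mice (log2 1.26, SE 0.266, adjusted p = 0.000393). Atp2a2 had a smaller fall in soleus than in gastrocnemius, but the difference, 0.47 (SE 0.209), had an adjusted p of 0.475, and Ryr1 gave 0.30 (SE 0.160, adjusted p = 0.622).

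In double KO mice, too, all 9 genes were called between soleus and gastrocnemius, in the same directions as in control mice, with 39.7% of all genes called. The libraries of 7 of the 9 did not overlap, against 31.1% of all genes; Pln and Casq2 overlapped, because mouse 1 had a soleus level inside the gastrocnemius range. Atp2a2 differed by log2 4.04 (SE 0.167) and Pvalb by log2 -3.67 (SE 0.382) in double KO, against 3.56 and -4.55 in control.

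**Figure D4:**
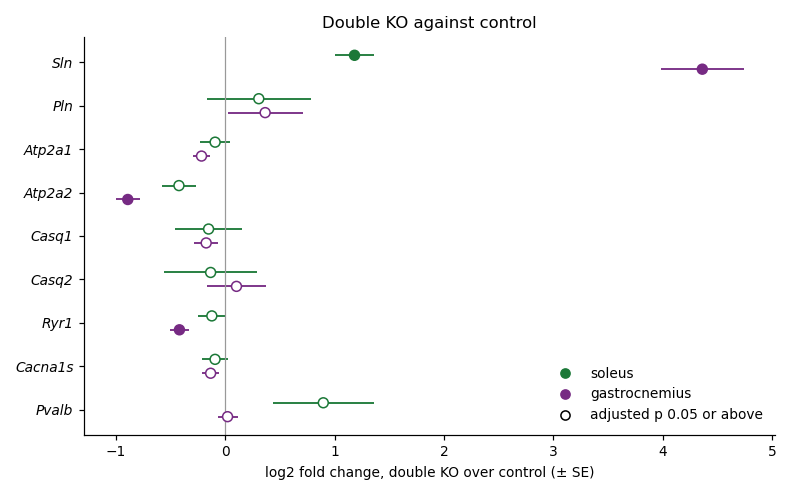
The log2 fold change of double KO over control for each gene, with bars of 1 SE, in soleus and in gastrocnemius; filled points passed an adjusted p of 0.05. Sln stands far to the right in gastrocnemius at 4.36 and at 1.18 in soleus, and Atp2a2 and Ryr1 are the only filled points to the left, both in gastrocnemius.

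Neither single deletion moved any of the 9 genes past the threshold. In gastrocnemius no member was called with edgeR in Acvr1b KO against control (0.0285% of all genes called) or in Tgfbr1 KO against control (0.171%). None had an unadjusted p under 0.05 there, which 4.42% of all genes had in Acvr1b KO and 6% in Tgfbr1 KO. In soleus none was called in Acvr1b KO (0.022% of all genes) or in Tgfbr1 KO (0.0496%). Sln in Tgfbr1 KO was the 1 soleus member with an unadjusted p under 0.05, against 1.95% of all genes in Acvr1b KO and 2.26% in Tgfbr1 KO. DESeq2 called 0 members in these 4 comparisons as well.

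Sln in the single deletions was near control in gastrocnemius, with a log2 difference of -0.19 (SE 0.438) in Acvr1b KO and of 0.07 (SE 0.432) in Tgfbr1 KO. In soleus it was 33, 22.4, 22 and 20.9 CPM in Acvr1b KO and 34.4, 27.6, 31.3 and 28.5 CPM in Tgfbr1 KO, against 22.8, 20.2, 29.7 and 18.5 CPM in control. All 4 Tgfbr1 KO values were above 3 of the 4 control values, and 2 of them were above the highest (log2 0.41, SE 0.176, unadjusted p = 0.0323). The muscle difference of the single-deletion effects was not called for any member, and 0% of all genes were called in either test; at an unadjusted p under 0.05 there were 244 genes (1.3%) for Acvr1b KO and 257 (1.37%) for Tgfbr1 KO, and 0 members.

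Set against the single deletions, the double KO gastrocnemius gave the same 3 genes and 1 more. These comparisons share the double KO libraries with the one against control, so they are not independent of it. Against Acvr1b KO, Sln rose (log2 4.55, SE 0.387, adjusted p = 1.05e-06), and Atp2a2 (-0.89, adjusted p = 4.64e-05), Ryr1 (-0.49, adjusted p = 0.000722) and Atp2a1 (-0.26, adjusted p = 0.0293) fell, where 16.3% of all genes were called. The 4 genes called were the 4 that did not overlap, against 26.2% of all genes. The Atp2a1 call was lost without Acvr1b KO 2, 3 or 4 or double KO 3 or 4 (adjusted p up to 0.0891). Against Tgfbr1 KO, Sln rose (4.29, SE 0.383, adjusted p = 2.28e-06), and Atp2a2 (-0.68, adjusted p = 0.000786) and Ryr1 (-0.40, adjusted p = 0.00491) fell, where 12.9% of all genes were called. Atp2a1 did not overlap there either (log2 -0.17, adjusted p = 0.178), which made 4 members against 16.9% of all genes.

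In soleus, Sln was higher in double KO than in Acvr1b KO (log2 1.06, SE 0.177, adjusted p = 0.0254), as 1 of 9 members, with 0.127% of all genes called and 5.04% not overlapping. That call was lost when the fit held no other genotypes (adjusted p = 0.405) and without Acvr1b KO 2, 3 or 4 or double KO 3 or 4 (up to 0.0799). Against Tgfbr1 KO the Sln difference of 0.77 (SE 0.176) missed the threshold with edgeR (adjusted p = 0.186) and passed it with DESeq2 (0.0156); no member was called, where 0.0496% of all genes were, and 3 members had an unadjusted p under 0.05, as did 9.13% of all genes. Sln (higher) and Atp2a2 (lower, log2 -0.39) did not overlap in that comparison, as did 4.6% of all genes.

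The order of the 8 groups by mean Sln was soleus double KO (51.5 ± 8.07 CPM), soleus Tgfbr1 KO (30.5 ± 3.04), soleus Acvr1b KO (24.6 ± 5.65), soleus control (22.8 ± 4.93), gastrocnemius double KO (21.4 ± 9.16), gastrocnemius Tgfbr1 KO (1.05 ± 0.446), gastrocnemius control (1.04 ± 0.482) and gastrocnemius Acvr1b KO (0.916 ± 0.178 CPM; SD, n = 4 each). Gastrocnemius double KO thus overlapped soleus control in level. Only soleus double KO and gastrocnemius double KO stood clear of the next lower group. For Pln the break between neighbours lay between the muscles alone, and for Atp2a2 the double KO group came last within each muscle.

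The ratio of inhibitor to pump RNA, per kilobase, changed with Sln. There were 10.1 ± 1.71 Sln per 1000 of Atp2a1 plus Atp2a2 in double KO soleus and 4.14 ± 1.56 in control soleus. In gastrocnemius the ratio was 2.02 ± 0.807 per 1000 in double KO and 0.0842 ± 0.0351 per 1000 in control, and 0.0726 ± 0.0131 in Acvr1b KO and 0.0882 ± 0.0365 in Tgfbr1 KO (SD, n = 4 each). Sln was 97.3 ± 0.806% of Sln plus Pln in double KO gastrocnemius against 69.6 ± 13.4% in control, and 91.5 ± 6.74% in double KO soleus against 85.9 ± 4.42% in control. These ratios are given as descriptions of RNA, with no test, and a ratio within a library shows unequal change only.

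**Figure D5:**
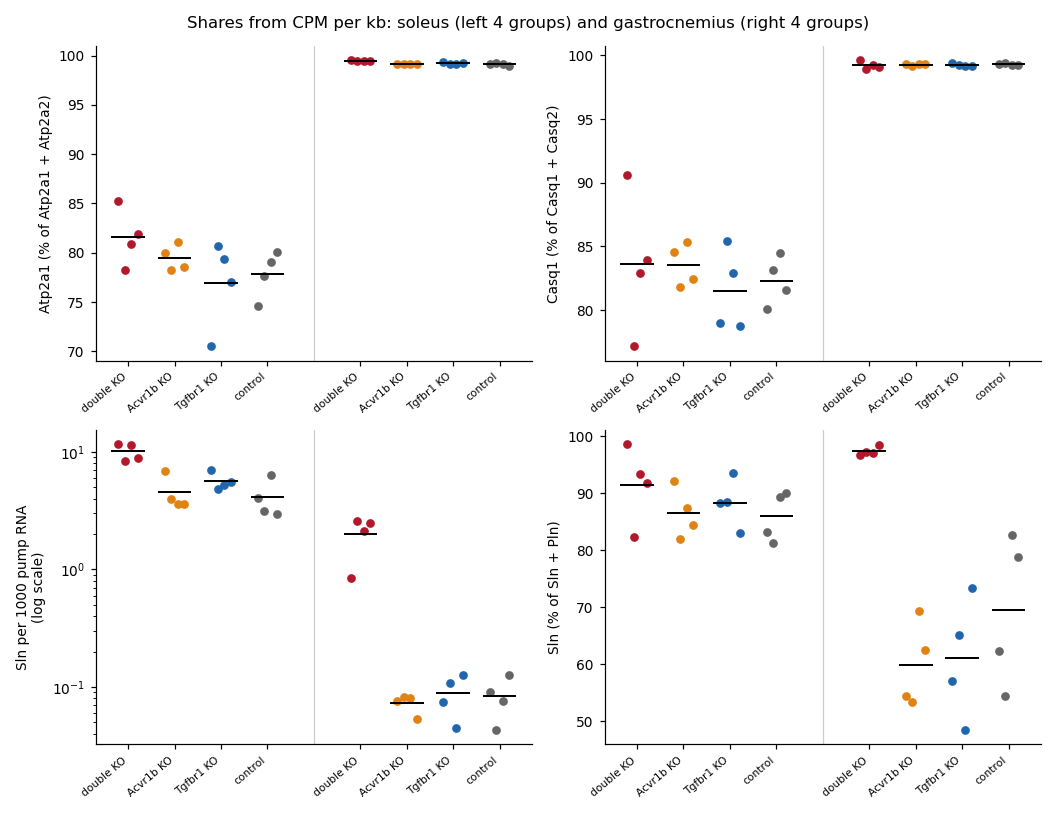
Ratios of RNA per kilobase in each library, with 1 point per mouse and a bar at the group mean: Atp2a1 among the pumps, Casq1 among the calsequestrins, Sln per 1000 of pump RNA on a log axis, and Sln among Sln plus Pln. The fast forms hold over 98% in every gastrocnemius library, and the Sln ratio of double KO gastrocnemius, 0.840 to 2.58 per 1000, lies between those of the other gastrocnemius groups and those of soleus.

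Ryr1 and the pumps fell unequally in double KO gastrocnemius: per kilobase, there were 2.81 ± 0.0323 Ryr1 per 100 of pump RNA in double KO and 3.23 ± 0.130 in control, against 3.74 ± 0.249 and 3.64 ± 0.228 in double KO and control soleus (SD, n = 4 each). Pvalb per 100 of calsequestrin RNA was 501 ± 24.2 in double KO gastrocnemius and 439 ± 52.9 in control.

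Other regulators of the pumps were read from a list of 7 genes, of which 2 fell and none rose in double KO gastrocnemius. A share of 2 in 7 is near the 20.9% of all genes called in that comparison. Mrln, the myoregulin gene of the fast fibre whose reading frame is shown above, averaged 15.6 ± 4.44 CPM in double KO and 24.5 ± 4.15 CPM in control (log2 -0.63, SE 0.161, adjusted p = 0.0100). Strit1, which encodes DWORF, a peptide that displaces inhibitors from the pump, averaged 0.536 ± 0.298 CPM in double KO and 1.11 ± 0.278 CPM in control (log2 -0.995, SE 0.320, adjusted p = 0.0360). Both groups overlapped. Between the muscles of control mice these 2 ran in opposite directions, Strit1 higher (log2 3.33) and Mrln lower (log2 -1.86) in soleus than in gastrocnemius, and of the 7 genes 4 were higher and 2 lower, where 40.4% of all genes were called.

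Around the release channel, 2 of 16 triad genes tested rose and 3 fell in double KO gastrocnemius, with a median of -0.03, where 20.9% of all genes were called in either direction. Cacnb1, the β subunit of the voltage sensor, averaged 165 ± 14.8 CPM in double KO and 121 ± 3.81 CPM in control (log2 0.46, SE 0.0843, adjusted p = 0.000934). Bin1, which shapes the T-tubule, averaged 920 ± 48.3 CPM in double KO and 678 ± 40.7 CPM in control (log2 0.45, SE 0.0652, adjusted p = 0.000121). Asph, whose gene also makes junctin, fell (log2 -0.36, adjusted p = 0.0296). Between control muscles 1 of 17 triad genes was higher and 11 were lower in soleus, where 40.4% of all genes were called. Among the lower ones were Cacng1 (log2 -1.84), Cacna2d1 (-1.46) and Jph2 (-1.41).

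Genes that move calcium into mitochondria gave 3 higher and none lower of 7 in double KO gastrocnemius, with a median of 0.31, where 20.9% of all genes were called in either direction. Micu2, a gatekeeper of the uniporter, averaged 54.1 ± 2.44 CPM in double KO and 37.6 ± 2.84 CPM in control (log2 0.53, SE 0.0756, adjusted p = 0.000108). The mitochondrial sodium-calcium exchanger Slc8b1 (log2 0.84, SE 0.191, adjusted p = 0.00496) rose as well. Micu2 was the 1 gene of the 6 lists called in the test of soleus minus gastrocnemius (log2 -0.72, SE 0.169, adjusted p = 0.0334), where 0.732% of all genes were called. Its means were 61.7 ± 15.4 CPM in double KO and 70.9 ± 3.62 CPM in control soleus. The double KO spread was the wider, and the Micu2 test was not rerun without double KO mouse 1 or any other library.

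The surface-membrane and calcineurin lists were mixed in double KO gastrocnemius, where 20.9% of all genes were called. Of 10 surface-membrane genes, the calcium pump Atp2b3 rose (0.36, adjusted p = 0.0212) and Atp2b1 fell (-0.43, adjusted p = 0.00687). Of 15 calcineurin and CaM kinase genes 3 rose and 3 fell, among them Nfatc2 (0.72, adjusted p = 0.00198), a target of calcineurin, Myoz2 (-0.78, adjusted p = 0.00959), which binds calcineurin at the Z-disc of slow fibres, and Rcan1 (-0.65, adjusted p = 0.0149), a calcineurin inhibitor. In soleus of double KO against control no gene of the 6 lists was called, where 0.722% of all genes were. In Acvr1b KO or Tgfbr1 KO against control none was called in either muscle, where 0.022% to 0.171% of all genes were.

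The genes most like Sln were sought by Pearson correlation of log2 CPM. Across the 16 gastrocnemius libraries the nearest of 11255 genes with at least 1 CPM on average were Traf5 (r = 0.969), Etv5 (0.959), Egf (0.957), Col7a1 (0.955) and Nes (0.953). These values mainly restate the gap between 4 double KO and 12 other libraries, and 95 genes had r over 0.9. Across the 16 soleus libraries the nearest of 11822 genes were Snrpd3 (0.843), Lancl1 (0.834), Tdrd7 (0.833), Nudt16 (0.820) and Plekho1 (0.814), none of which was among the 5 of gastrocnemius. Pvalb over all 32 libraries was nearest to Mybpc2 (0.993), Actn3 (0.992), Mstn (0.988), Cib2 (0.988) and Myh4 (0.987), where the 2 muscles form separate clusters. These correlations describe libraries that share genotype, muscle and mouse, and carry no test.

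By position, Sln (ENSMUSG00000042045) lies at chr9:53850164-53854560 on the plus strand of GRCm38, and Pln (ENSMUSG00000038583) at chr10:53337667-53345987, plus strand. Atp2a1 (ENSMUSG00000030730) lies at chr7:126445858-126463108 and Atp2a2 (ENSMUSG00000029467) at chr5:122453513-122502225, both on the minus strand. Casq1 (ENSMUSG00000007122) lies at chr1:172209894-172219868, minus strand, and Casq2 (ENSMUSG00000027861) at chr3:102086415-102146514, plus strand. Ryr1 (ENSMUSG00000030592) lies at chr7:29003344-29125179, minus strand, Cacna1s (ENSMUSG00000026407) at chr1:136052750-136119822, plus strand, and Pvalb (ENSMUSG00000005716) at chr15:78191114-78206400, minus strand. The genes overlapping Atp2a1 (Rabep2) and Pln (Cep85l) lie on the opposite strand, and the counting used strand.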

How the data were processed

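The deposited values are estimated counts that featureCounts 2.0.1 assigned to Ensembl 102 genes on GRCm38, reverse strand, with multi-mapping reads shared as fractions, per the file headers. The submitters' processing notes also name cutadapt, HISAT2, FastQC and DESeq2. Counts were rounded to whole numbers. Symbols came from GENCODE M21 for 55227 of 55487 identifiers. The members and all gene lists were chosen with earlier results of these data known.

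Genes were kept by filterByExpr (17536 in gastrocnemius, 18143 in soleus, 18726 in both muscles) and libraries scaled by TMM. Each genotype comparison used the edgeR 4.0.16 quasi-likelihood test (R 4.3.3; robust, 2-sided) on the 16 libraries of a muscle, with a mean per genotype; muscle comparisons and differences of effects used all 32. The threshold was a Benjamini-Hochberg adjusted p of 0.05. Simulated counts gave recovery, for double KO against control, of 86% of 2-fold changes in gastrocnemius and 82% in soleus. No 2 libraries held identical values. Soleus and gastrocnemius libraries of a mouse were joined by the animal number in the labels, and their deviations from group means correlated at 0.0344 to 0.579. Named list genes were, per list and comparison, up to 3 called genes with the largest change and at least 1 CPM in the higher group. Alternatives were DESeq2 1.42.0, RLE size factors, no filter, a fit without the other groups, a block, leaving out each library, and, chosen after seeing the data, leaving out the libraries that stand apart (double KO 1 in both muscles, control 1 and Tgfbr1 KO 1 in gastrocnemius). Some genes of the pathway lists are not reported here.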

Additional observations from a re-analysis of the deposited data

Results flagged for a closer look

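In 7 of the 72 groups of 4 libraries tested, 1 library lay far from the other 3 by Dixon's test, which chance gives in about 1 of 20 groups. Double KO mouse 1 was low in 3 of them, with 25335 CPM of Atp2a1 in gastrocnemius (27955 to 28461 in the other 3), 4545 CPM of Ryr1 in gastrocnemius (4975 to 4990) and 3077 CPM of Atp2a2 in soleus (4586 to 4881). Acvr1b KO 1 was apart in soleus for Sln, at 33 CPM above 20.9 to 22.4 CPM, and for Cacna1s, at 726 CPM below 928 to 962 CPM. Tgfbr1 KO 2 had 162 CPM of Casq2 in soleus, below 215 to 221 CPM. Control 1 had 5922 CPM of Ryr1 in gastrocnemius, below 6715 to 6826 CPM in the other 3 controls.

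The double KO effect on Sln differed between the muscles by -3.18 on the log2 scale (soleus minus gastrocnemius; edgeR adjusted p = 5.40e-05), being smaller in soleus in the test of the difference itself.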

How the results depend on the processing

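No value of the 9 genes that passed the threshold in any setting changed sign. Over the settings other than leaving out a library, 775 of 810 member values kept direction and side of the threshold. Over the leave-one-out fits, 1172 of 1296 did. The number of members called changed in 4 comparisons. In gastrocnemius, with Atp2a1 as the gene that changed sides, it was 3 for double KO against control but 4 with DESeq2, without the libraries that stand apart and without control 1, and 4 for double KO against Acvr1b KO but 3 to 4 leaving out 1 library. In soleus, for double KO against Acvr1b KO it was 1, but 0 when the fit held no other genotypes and 0 to 1 leaving out 1 library, and for double KO against Tgfbr1 KO it was 0 but 1 with DESeq2. The cause was not tested. The Sln, Atp2a2 and Ryr1 calls of double KO against control in gastrocnemius held in every setting run.

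Counts of all genes called moved by over 1.5 times as follows. Double KO against control gave 3673 in gastrocnemius (2330 with only the compared groups) and 131 in soleus (410 with DESeq2, 35 with only the compared groups, 308 without double KO 1). Double KO against Acvr1b KO gave 2852 in gastrocnemius (4322 without the libraries that stand apart) and 23 in soleus (152 with DESeq2, 15 with the replicate block, 0 with only the compared groups). Double KO against Tgfbr1 KO in soleus gave 9 (84 with DESeq2, 2 with only the compared groups). Acvr1b KO against control gave 5 in gastrocnemius (25 with DESeq2, 2 with the replicate block, 3 with only the compared groups, 8 without the libraries that stand apart) and 4 in soleus (9 with DESeq2, 7 without those libraries). Tgfbr1 KO against control gave 30 in gastrocnemius (57 with DESeq2, 100 without those libraries) and 9 in soleus (19 with DESeq2, 17 with no filter, 18 without those libraries). Soleus against gastrocnemius in double KO gave 7434 (4923 with only the compared groups), and the double KO effect of soleus minus gastrocnemius gave 137 (229 with DESeq2, 258 with the animal as block, 31 with only the compared groups, 283 without those libraries).

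Replicate numbers do not pair mice of different genotypes: same-numbered libraries correlated at -0.261 to 0.297, and a replicate block changed no member call (Sln in double KO gastrocnemius 4.30, adjusted p = 4.89e-06). The animal block changed no member call either. In simulated counts, 58% of 1.5-fold changes were recovered in gastrocnemius and 20% in soleus for double KO against control. Member differences of that size can thus be missed, most of all in soleus. Levels of Sln, Pln and Strit1 near 1 CPM in gastrocnemius rest on few reads.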

Other observations

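Schwann-cell and nerve markers gave 1 high soleus library in 3 genotypes, with sums of 482 CPM in double KO 2, 636 CPM in Acvr1b KO 3 and 560 CPM in Tgfbr1 KO 4, while the other soleus libraries of all 4 genotypes summed to 61.9 to 200.7 CPM. Sln in those 3 libraries was 40.7, 22 and 28.5 CPM, of which the first was the lowest of its group. Sln and Casq2 had equal deposited counts in 2 gastrocnemius libraries, 248 each in double KO 1 and 1057 each in double KO 4.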
